A study of Mus musculus with 31 samples.

Results

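The NFAT transcription factors and the subunits of calcineurin, the phosphatase that activates them, were followed in a mouse T helper clone of the type 2 kind (Th2), D10.G4.1. All probe sets that the platform's probe annotation pairs with the single symbols Nfatc1, Nfatc2, Nfatc3, Ppp3ca, Ppp3cb, Ppp3cc or Ppp3r1 were taken. They were 10 of the 12488 probe sets in the table, for 7 genes. Nfatc2 had 3 probe sets, Nfatc3 had 2 and each of the other genes had 1, so that 6 probe sets measured NFAT factors and 4 measured calcineurin subunits. Cells had been given neuromedin U (NmU), a neuropeptide that acts through G protein-coupled receptors, or phosphate-buffered saline (PBS), and total RNA was taken at 0.8, 3, 6 and 12 h. There were 8 groups of 4 arrays, with NmU at 3 h 1 array short, giving 31 in all. The labels record no allele or agent other than NmU and PBS. All cells come from 1 clone, and the labels do not say whether replicates were separate cultures, so p-values measure only sample-to-sample spread, possibly technical. Precision is limited by how many arrays there are.

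In a stimulated T cell, calcium entering the cytoplasm binds calmodulin, which switches on calcineurin. Calcineurin pairs a catalytic A subunit (encoded by Ppp3ca, Ppp3cb or Ppp3cc) with a regulatory B subunit that binds calcium (Ppp3r1), and it strips phosphates from NFAT proteins so that they enter the nucleus. There NFAT acts with AP-1 and other partners on cytokine genes such as Il4; the immunosuppressants cyclosporin A and FK506 work by blocking calcineurin. Nfatc2 and Nfatc3 are made in resting T cells, whereas Nfatc1 is also induced by activation, through a promoter that NFAT itself can drive.

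The NFAT core motif, GGAAA or TTTCC on the other strand, was searched in RefSeq promoter windows of assembly GRCm38.p6. A window runs over 300 bases, from 250 before to 50 after an annotated gene start, and 61.3% of the 32851 windows hold at least 1 core. Windows were found for 4 of the 7 genes, Nfatc2, Nfatc3, Ppp3cb and Ppp3r1. An Nfatc2 window holds 3 cores (starting at positions -239, -200 and -175 from the gene start), and 9.42% of windows hold 3 or more. A second Nfatc2 window, at a start within the gene, holds 1. The 2 windows of Nfatc3 hold 1 and 0. The Ppp3cb window holds 4, of which 3 lie before the start. The window of Ppp3r1 holds 0, like 38.7% of all windows. An Il4 window, shown because Il4 is the textbook NFAT target that was higher with NmU at all 4 times, holds 5 (at -241, -184, -161, -77 and -59), and 0.728% of windows hold that many or more; a second Il4 window holds 1. A match of 5 letters is a description and not a binding site, and a window without one says only that these letters are not in it. Il4 was the only target gene searched, so counts of cores cannot be set against changes with NmU. The windows of Nfatc2 (chr2:168601608-168601907, minus strand), Ppp3cb (chr14:20546524-20546823, minus strand) and Il4 (chr11:53618616-53618915, minus strand) are printed 5′ to 3′ along the gene, with each core in capitals, to show where the cores lie in the windows that hold most of them for a factor gene, a phosphatase gene and a target gene; the windows with 1 or 0 are not printed.
Nfatc2: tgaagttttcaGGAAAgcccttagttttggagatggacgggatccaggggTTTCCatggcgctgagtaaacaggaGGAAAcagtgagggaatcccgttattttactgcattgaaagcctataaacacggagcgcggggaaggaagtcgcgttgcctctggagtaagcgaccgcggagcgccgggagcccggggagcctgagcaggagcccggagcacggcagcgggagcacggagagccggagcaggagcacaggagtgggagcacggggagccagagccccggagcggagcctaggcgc
Ppp3cb: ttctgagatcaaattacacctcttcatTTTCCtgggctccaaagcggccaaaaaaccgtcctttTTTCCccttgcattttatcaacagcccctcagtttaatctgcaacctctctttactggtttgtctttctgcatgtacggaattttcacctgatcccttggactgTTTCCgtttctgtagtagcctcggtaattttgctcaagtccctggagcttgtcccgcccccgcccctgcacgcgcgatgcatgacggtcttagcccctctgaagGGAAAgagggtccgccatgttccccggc
Il4: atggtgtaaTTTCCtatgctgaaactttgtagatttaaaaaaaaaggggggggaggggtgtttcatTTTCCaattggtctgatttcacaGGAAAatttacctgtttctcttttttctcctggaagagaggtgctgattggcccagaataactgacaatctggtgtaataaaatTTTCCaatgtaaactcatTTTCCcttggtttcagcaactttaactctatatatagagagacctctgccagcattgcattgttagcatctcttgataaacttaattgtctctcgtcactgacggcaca

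Values are the deposited probe set signals on a linear scale. The arrays had been brought to a common mean signal, so that every difference is relative to the other transcripts. Of the 10 probe sets, 9 passed a filter on dim signals and were tested among 7930. A probe set was called at a Benjamini-Hochberg adjusted p under 0.05 in limma, adjusted over all 7930. Differences between treatments are log2 fold changes, NmU over PBS, with their standard error (SE). RNA was taken from whole cultures, in which fewer cells holding a transcript and less of it per cell cannot be told apart. Signals were set against a floor of 5.8, the 20th percentile of all values, which is not a limit of detection. The T cell genes Cd3e, Cd3g, Cd3d, Cd4 and Cd28 and all 6 Th2 markers on the array lay above this floor on all 31 arrays. Thy1 lay at the floor on 20 and Cd5 on 14. Markers of other cells were mixed. Of 4 for CD8 T or NK cells, Cd8a was at the floor on 26 arrays, Cd8b1 on 25 and Ncr1 on 26, but Gzmb, a granule protease, read 1443 to 3593.3. Of 5 for B cells, Cd22 was at the floor on 18 arrays and Cd79b on 3, and Cd79a (median 61.1), Ms4a1 (41.7) and Blk (18.7) on 0. Of 7 for macrophages and dendritic cells, Itgam was at the floor on 31, Lyz2 on 28 and Adgre1 on 26, and Itgax (median 100.5), Cd14 (70.9), Cd68 (39.1) and Csf1r (30) on 0. Whether these signals come from other cells or from the clone was not tested. The PBS 3 h replicate 4 array stood farthest from its group and had the lowest array weight, 0.28. Its median correlation with the group's other arrays was 0.958, against 0.963 to 0.967 for the others of that group and up to 0.975 elsewhere. NmU 6 h replicate 4 sat close to its group over all probe sets (0.97) but read 1705.4 for the NFAT target Egr2, where the other arrays of the group read 251.9 to 304.4.

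NmU raised 1 transcript and lowered 1 among the 9 tested probe sets, both at 3 h. Nfatc1, the inducible NFAT factor, rose 2.12-fold. Ppp3cc, which encodes the gamma isoform of the catalytic subunit, fell to 0.582 of its PBS level. The other catalytic subunits, the regulatory subunit, Nfatc2 and Nfatc3 were called at no time. At 3 h, 4.44% of all tested probe sets were called higher and 5.73% lower, and a count of 1 of 9 in each direction is too small to be set against those shares.

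Nfatc1 was measured by a single probe set, 102209_at. At 0.8 h its signal was 102.5, 89.4, 103.7 and 98.3 with NmU, against 67.3, 84.8, 82.1 and 78.2 with PBS. At 3 h it was 184.8, 157.1 and 215.2 with NmU, against 79.3, 112.6, 86.7 and 74.0 with PBS. Every NmU array lay above every PBS array at both times, and the gap was wider at 3 h. At 6 h the signals were 118.5, 135.8, 135.4 and 102.1 with NmU, against 76.2, 70.7, 86.6 and 101.0 with PBS. At 12 h they were 157.9, 98.0, 113.7 and 119.0 with NmU, against 66.7, 89.2, 87.2 and 128.1 with PBS. The treatments did not overlap at 6 h, where the lowest NmU and the highest PBS array almost met, and they overlapped at 12 h through the highest PBS array.

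**Figure D1:**
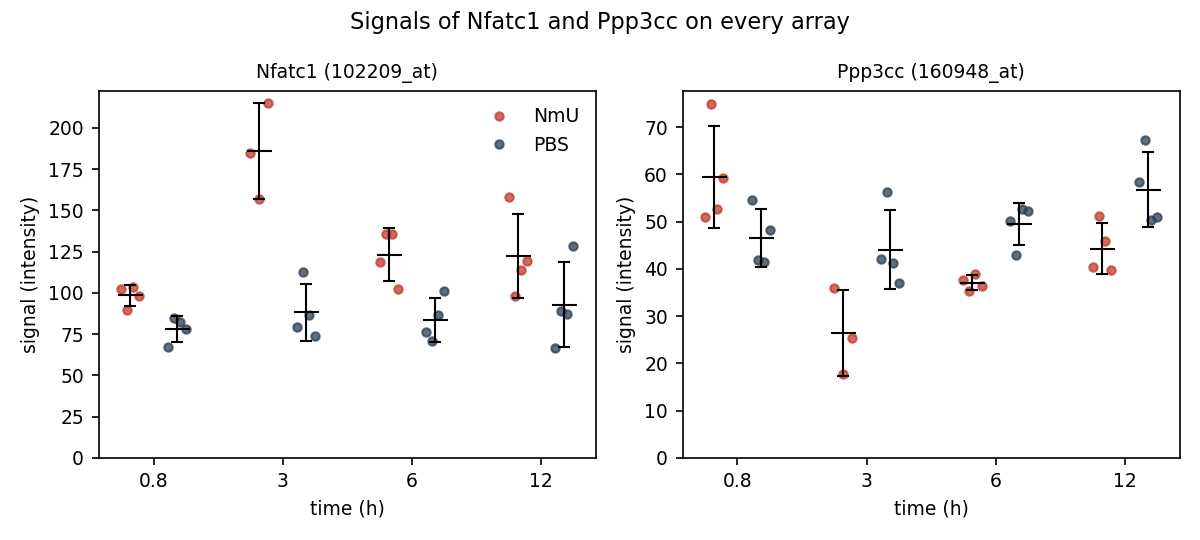
Signals of Nfatc1 and Ppp3cc on each array (linear scale, points) by time in hours, NmU left of PBS, with a dash at each group mean and error bars of 1 SD. Nfatc1 with NmU at 3 h lies between 157.1 and 215.2, above all PBS arrays of that time, and Ppp3cc with NmU at 3 h lies between 17.8 and 36.0, below all of them.

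The log2 fold change of Nfatc1 was 1.08 ± 0.18 (SE) at 3 h, with a 95% interval from 0.70 to 1.46 and an adjusted p of 1.88e-04 in limma. Without the outlying PBS 3 h replicate 4, which read the lowest of its group at 74.0, it was 1.00 (adjusted p = 9.44e-04). Only 99 of the 7930 probe sets had a larger one at that time. At the other times it was 0.34 ± 0.17 at 0.8 h (limma adjusted p = 0.769), 0.56 ± 0.17 at 6 h (0.056) and 0.41 ± 0.17 at 12 h (0.335), none of them called. Nfatc1 thus differed between treatments at some time by the F test (limma adjusted p = 1.60e-04). Whether its effect changed with time was not resolved: the effect at 3 h exceeded that at 0.8 h by 0.74 ± 0.25 (limma adjusted p = 0.112), and the F test of a difference between times gave an adjusted p of 0.251. The 6 h difference lay close to the threshold and was called when arrays were weighted by quality (adjusted p = 0.0216) or without NmU 6 h replicate 4 (0.65, adjusted p = 0.0357), whose 102.1 was the lowest of its group, and in 7 of the 31 fits that each left out 1 array. Groups with every NmU array higher occurred for 2.56%, 8.12% and 6.54% of all tested probe sets at 0.8, 3 and 6 h.

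In group means Nfatc1 stood highest with NmU at 3 h (186 ± 29.1, SD, n = 3), then with NmU at 6 h (123 ± 16.1, n = 4), 12 h (122 ± 25.4, n = 4) and 0.8 h (98.5 ± 6.48, n = 4). The 4 PBS groups followed, at 92.8 ± 25.6 at 12 h, 88.2 ± 17.1 at 3 h, 83.6 ± 13.3 at 6 h and 78.1 ± 7.69 at 0.8 h. Neighbours in this order lay within one another's spread except at the top, where no array of NmU at 6 h reached the lowest of NmU at 3 h and 1 array of NmU at 12 h did. No drift with time in PBS was called for Nfatc1 (limma F test adjusted p = 0.881).

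Ppp3cc, probe set 160948_at, moved the other way. At 0.8 h its signal was 51.0, 74.9, 52.7 and 59.3 with NmU, against 54.5, 41.9, 41.4 and 48.3 with PBS. At 3 h it was 36.0, 17.8 and 25.4 with NmU, against 42.0, 56.2, 41.2 and 37.0 with PBS. The groups overlapped at 0.8 h, where the NmU mean was the higher, and at 3 h all NmU arrays were lower. At 6 h it was 37.7, 35.3, 39.0 and 36.3 with NmU, against 50.2, 43.0, 52.6 and 52.2 with PBS, again without overlap. At 12 h it was 40.4, 51.2, 45.9 and 39.7 with NmU, against 58.4, 67.4, 50.3 and 51.1 with PBS, and only the highest NmU array reached the PBS range. All NmU arrays below all PBS arrays was seen for 10.6% of tested probe sets at 3 h and 5.44% at 6 h.

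The log2 fold change of Ppp3cc was -0.78 ± 0.18 (SE) at 3 h (95% interval -1.15 to -0.41, limma adjusted p = 0.00435), and -0.86 without PBS 3 h replicate 4 (0.00303). It was 0.35 ± 0.17 at 0.8 h (adjusted p = 0.72), -0.41 ± 0.17 at 6 h (0.168) and -0.36 ± 0.17 at 12 h (0.421) in the same limma fit. The call at 3 h rests on the NmU 3 h replicate 2 array, the lowest at 17.8: without it the log2 fold change was -0.53 and the adjusted p 0.0664. It was also lost when only the 3 h arrays were fitted (limma adjusted p = 0.172). The effect at 3 h lay below that at 0.8 h, with a difference of log2 fold changes of -1.13 ± 0.24 (SE, 95% interval -1.63 to -0.63, limma adjusted p = 0.00762). Ppp3cc was the 1 probe set of 9 whose effect differed between times by the F test (limma adjusted p = 0.0269), a call made for 4.04% of all tested probe sets. It was lost without any 1 of 5 arrays, with adjusted p of 0.0703 and 0.0554 on leaving out replicates 2 and 4 of NmU at 0.8 h, 0.0555 on leaving out replicate 3 of NmU at 3 h, and 0.0659 and 0.0679 on leaving out replicates 2 and 3 of PBS at 0.8 h. Over the 31 arrays the log2 signals of Ppp3cc and Nfatc1 correlated at r = -0.571, the lowest of the 36 pairs of tested probe sets. Within groups, after group means were taken off, r was 0.031, so that arrays of 1 group did not pair high Nfatc1 with low Ppp3cc.

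The major catalytic subunits and the shared regulatory subunit gave small differences. Ppp3ca, the alpha catalytic subunit (95092_at), had 458.3, 517.0 and 579.5 with NmU at 3 h, against 490.0, 680.0, 643.4 and 605.9 with PBS, and the groups overlapped. Its log2 fold changes were -0.14, -0.22, -0.13 and 0.07 at 0.8, 3, 6 and 12 h, and the 95% interval at 3 h ran from -0.55 to 0.12 (limma adjusted p = 0.453). Ppp3cb, the beta catalytic subunit whose promoter window is printed above (97989_at), had 45.6, 65.2 and 49.3 with NmU at 3 h, against 48.7, 68.1, 58.6 and 71.6 with PBS, also overlapping. Its log2 fold changes were -0.14, -0.21, 0.19 and -0.28 in the same order of times, with an interval at 3 h from -0.60 to 0.18 (limma adjusted p = 0.55). Ppp3r1, the calcium-binding regulatory subunit (99183_at), had 386.4, 464.5 and 441.6 with NmU at 3 h, against 560.5, 499.2, 480.6 and 451.5 with PBS. These groups overlapped through 1 NmU array. Its log2 fold changes were 0.02, -0.21, 0.04 and -0.04, with an interval at 3 h from -0.47 to 0.06 (limma adjusted p = 0.348).

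All 4 calcineurin subunits thus had a negative log2 fold change at 3 h, between -0.78 and -0.21, and Ppp3cc alone was called. The intervals of the other 3 still allow falls of 0.47 to 0.60 log2 units, and a difference that misses the threshold does not show that the level was kept. At 0.8 h the subunits lay between -0.14 and 0.35, at 6 h between -0.41 and 0.19, and at 12 h between -0.36 and 0.07.

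**Figure D2:**
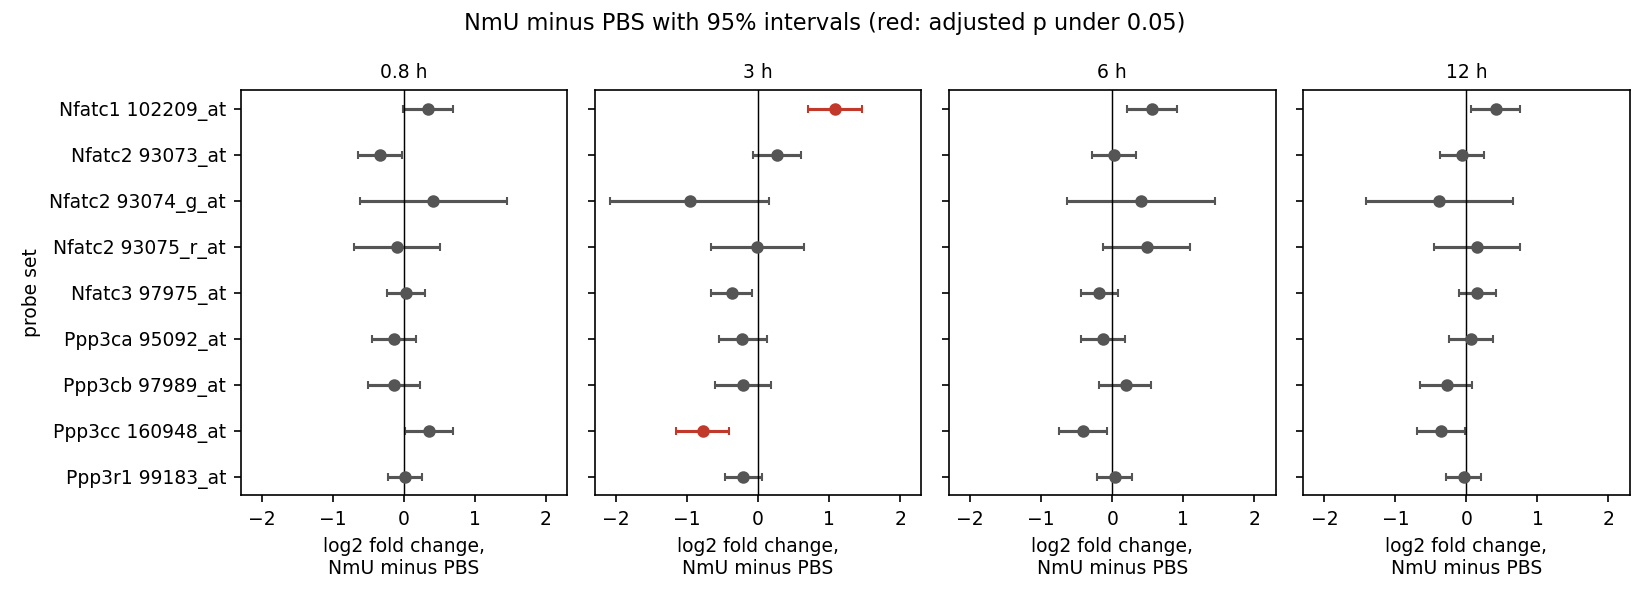
Log2 fold change, NmU over PBS, of the 9 tested probe sets (rows), a panel a time, with 95% intervals from limma as bars, a line at 0 and called probe sets in red. The intervals of Nfatc1 (0.70 to 1.46) and Ppp3cc (-1.15 to -0.41) at 3 h stand on opposite sides of 0.

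Nfatc2, the NFAT factor that predominates in resting T cells, was measured by 3 probe sets that share a target gene. They did not move together. For 93073_at the signal at 3 h was 107.4, 104.0 and 115.5 with NmU, against 85.0, 87.6, 104.3 and 85.9 with PBS. For 93074_g_at it was 22.1, 17.2 and 13.9 with NmU, against 80.8, 22.6, 44.0 and 16.6 with PBS, and for 93075_r_at it was 24.5, 45.6 and 40.1 with NmU, against 30.9, 53.8, 43.4 and 22.5 with PBS. NmU was thus on average the higher for the first and the lower for the second, and every pair of groups overlapped. Their log2 fold changes at 3 h were 0.27 ± 0.16, -0.96 ± 0.54 and -0.01 ± 0.32 (limma adjusted p = 0.338, 0.295 and 0.994), and none was called at any time. At 0.8 h 93073_at lay at -0.33 ± 0.15, with an unadjusted p of 0.0403 that became 0.701 after adjustment in limma. Over the 31 arrays the pairs of probe sets correlated at -0.323, 0.13 and 0.081, and the second varied by up to 71.3% of its mean within a group, so that the direction of Nfatc2 cannot be read from these probe sets.

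Nfatc3, an NFAT factor shared by thymocytes and mature T cells, had 1 usable probe set, 97975_at. At 3 h its signal was 222.2, 253.7 and 241.3 with NmU, against 316.4, 287.7, 318.0 and 313.6 with PBS. Every NmU array was lower, as for 10.6% of all tested probe sets at that time. The difference of -0.37 ± 0.14 (95% interval -0.66 to -0.09) gave a limma adjusted p of 0.091 and was not called. At 0.8, 6 and 12 h the log2 fold changes were 0.03, -0.18 and 0.15 and the groups overlapped. The second Nfatc3 probe set, 102050_at, failed the filter, with signals between 2.2 and 14.2 that lay mostly at the floor of 5.8 or below, and supports no direction.

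**Figure D3:**
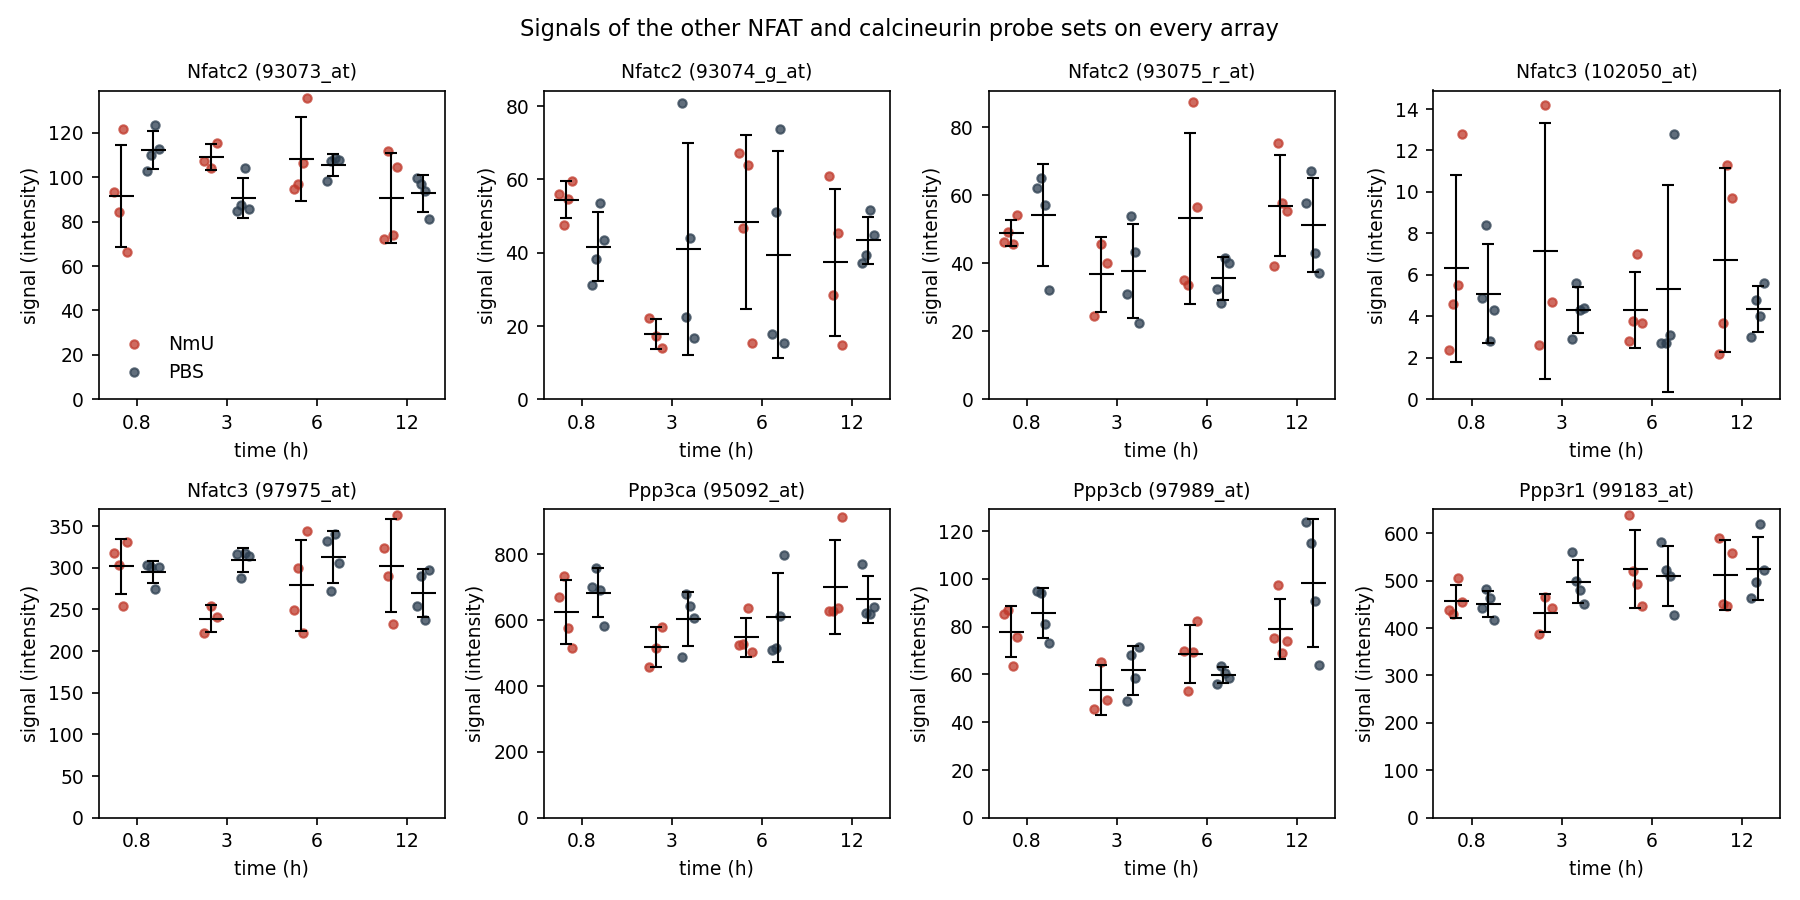
Signals of Nfatc2 (3 probe sets), Nfatc3 (2 probe sets), Ppp3ca, Ppp3cb and Ppp3r1 on each array (linear scale, a panel a probe set with its own axis) by time in hours, NmU left of PBS, with a dash at each group mean and error bars of 1 SD. At 3 h NmU and PBS overlap for all of these except Nfatc3 97975_at, where NmU lies between 222.2 and 253.7 and PBS between 287.7 and 318. All NmU arrays lay below all PBS arrays for 10.6% of tested probe sets at 3 h.

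Counted over times, 0 of 9 probe sets were called at 0.8 h, where 0.782% of all tested were called higher and 0.0631% lower. At 6 h 0 of 9 were called, beside 2.85% higher and 2.03% lower, and at 12 h 0 of 9, beside 0.858% higher and 0.404% lower. At an unadjusted limma p under 0.05 there were 2 at each of these 3 times, and 3 at 3 h. The share of all tested probe sets at that unadjusted threshold was not counted, so these counts say nothing about the members as a set. The F test over all times called 2 of 9, Nfatc1 and Ppp3cc, against 11.6% of all probe sets. The F test of time in PBS called 0 of 9, against 0.0126%. Its lowest member was Ppp3cb, with an unadjusted limma p of 9.75e-04 and an adjusted p of 0.397. Ppp3cb averaged 53.4 with NmU and 61.8 with PBS at 3 h, 68.6 and 59.7 at 6 h, and 79 and 98.2 at 12 h, beside 77.8 with NmU and 85.8 with PBS at 0.8 h. The share of higher among all calls depends on scaling: at 3 h 352 probe sets were higher and 454 lower, but 323 higher and 265 lower with arrays scaled to a common median, and at 6 h 226 higher and 161 lower against 114 and 173. Neither call at 3 h was lost under either rescaling tried.

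The median log2 fold change of the 9 probe sets was 0.02, -0.21, 0.04 and -0.04 at 0.8, 3, 6 and 12 h, beside -0.04, -0.03, 0.02 and -0.02 over all tested probe sets. Positive values were 5, 2, 6 and 4 of the 9. At 3 h the positive ones were Nfatc1 and Nfatc2 93073_at.

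The rest of the pathway was read from lists of genes known to act above, on or below calcineurin and NFAT, with 1 probe set a gene. The lists were chosen with earlier results of these data known, so their counts describe and do not test. Of all tested probe sets 0.782%, 4.44%, 2.85% and 0.858% were called higher at 0.8, 3, 6 and 12 h, and 0.0631%, 5.73%, 2.03% and 0.404% lower. Of 9 tested genes of upstream calcium signalling, 0 were called at any time, with a median log2 fold change of -0.26 at 3 h. The lowest adjusted p of the F test over times in this list belonged to Nmur1, a receptor for NmU (limma adjusted p = 0.118), and to Stim1, the calcium sensor of the endoplasmic reticulum (0.206). Nmur1 averaged 127 ± 38.3 with NmU (SD, n = 3) and 214 ± 84.0 with PBS (n = 4) at 3 h, a log2 fold change of -0.67 ± 0.27 (limma adjusted p = 0.112). Without PBS 3 h replicate 4 and NmU 6 h replicate 4 it was -1.06 and was called lower (limma adjusted p = 6.83e-04). Leaving out these 2 arrays was chosen after seeing the data.

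Among 7 tested calcineurin regulators and anchors, Fkbp1a, which encodes FKBP12, the protein that carries FK506 to calcineurin, was the only one called. It averaged 1990 ± 46.6 with NmU (SD, n = 3) and 1470 ± 154 with PBS (n = 4) at 3 h, a log2 fold change of 0.45 ± 0.10 (limma adjusted p = 0.00287). At 6 h it averaged 1840 ± 150 with NmU and 1450 ± 114 with PBS (n = 4 each, 0.34 ± 0.09, limma adjusted p = 0.0227), a call lost with arrays scaled to a common median (adjusted p = 0.208). Of 14 tested kinases and transport factors, which rephosphorylate NFAT or carry it across the nuclear envelope, 2 rose and 1 fell at 3 h. At that time 4.44% of all tested probe sets were called higher and 5.73% lower, and counts this small cannot be set against those shares. Csnk1e, a casein kinase, rose by 0.61 ± 0.16 at 3 h (limma adjusted p = 0.0115) and by 0.74 ± 0.15 at 12 h (0.00545). The stress kinase genes Mapk8 (JNK1) and Mapk9 (JNK2) went opposite ways at 3 h, at 0.55 ± 0.13 and -0.56 ± 0.17 (limma adjusted p = 0.00782 and 0.0352). Mapk14 (p38 alpha) rose at 6 h by 0.34 ± 0.09 (limma adjusted p = 0.021), but not with arrays scaled to a common median (0.237).

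Of 12 tested partners of NFAT in the nucleus, 4 rose at 0.8 h, 4 rose and 1 fell at 3 h, 1 rose at 6 h and 0 were called at 12 h. Of all tested probe sets 0.782% were called higher at 0.8 h, 4.44% higher and 5.73% lower at 3 h, and 2.85% higher at 6 h. The AP-1 genes Fos, Fosl1 and Junb and the early growth response gene Egr1 rose at 0.8 h, Fos to 533 ± 46.6 with NmU, against 30.4 ± 5.68 with PBS (SD, n = 4 each; log2 fold change 4.15 ± 0.45, limma adjusted p = 6.03e-07). At 3 h Fosl1 (1.58), Egr1 (1.59), Gata3, the master regulator of Th2 cells (0.43), and Junb (0.39) were higher, Junb not with arrays scaled to a common median (limma adjusted p = 0.0868). Irf4, which joins NFAT on cytokine promoters, fell at 3 h to 785 ± 95.7 with NmU, against 1220 ± 110 with PBS (-0.64 ± 0.12, limma adjusted p = 6.91e-04). Without the 2 arrays named above Fos (1.21) and Jund (0.53) were also called higher at 3 h and Ikzf1 (-1.28) lower, so that 6 partners rose and 2 fell. That exclusion was chosen after seeing the data. It also raised the calls over all probe sets at 3 h, to 399 higher and 548 lower of 7955, from 352 and 454 of 7930. With no filter 3 of the 13 on the array rose and 1 fell at 3 h. In that fit 366 of all 12422 probe sets were called higher and 438 lower.

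Of 19 NFAT target genes known from T cells on the array, 7 rose at 0.8 h, 11 at 3 h, 8 at 6 h and 5 at 12 h, and 0 fell, when limma was fitted with no filter on dim signals. Their median log2 fold changes were 0.65, 1.46, 0.84 and 0.30. Of all 12422 probe sets in that fit, 60, 366, 212 and 62 were called higher at 0.8, 3, 6 and 12 h, and 5, 438, 161 and 27 lower. The filter dropped 6 of the 19 and left 13, of which Ccl4 passed through NmU groups only. Its direction was thus set in part by the filter, though a call was not. Of the other 12, 6 rose at 0.8 h, 10 at 3 h, 8 at 6 h and 4 at 12 h with the filter, as named here. Il4 averaged 3280 ± 610 with NmU and 504 ± 76.5 with PBS at 3 h (SD, n = 3 and 4), a log2 fold change of 2.70 ± 0.11 (limma adjusted p = 5.01e-15). It was 1.82 at 0.8 h, 1.89 at 6 h and 1.21 at 12 h, called each time. Il13 was likewise called at all 4 times; Tnf, Egr2 and Ctla4 at 0.8, 3 and 6 h; Il5 and Ccl3 at 3, 6 and 12 h; Nr4a1 at 0.8 and 3 h; Il3 at 3 and 6 h; and Tnfsf8 at 3 h. The Ctla4 call at 6 h was lost with arrays scaled to a common median (0.99, limma adjusted p = 0.0582). Ccl4, a chemokine, averaged 157 ± 32.4 with NmU (SD, n = 3) and 17.7 ± 11.3 with PBS (n = 4) at 3 h. Cd40lg and Il2ra were called at no time. At 0.8 h, when 6 of these 12 targets were called higher, Nfatc1 was not called (0.34 ± 0.17). All its NmU arrays lay above all PBS arrays at that time, as for 2.56% of all tested probe sets. Whether Nfatc1 has a part in the change of any target was not tested. The 13 tested genes for subunits of other serine/threonine phosphatases gave 0 calls at every time, with medians of 0, 0.13, 0.10 and 0. The largest shares of calls came at 3 h, where 4.44% of all tested probe sets rose and 5.73% fell. A list of 13 is too short for 0 calls to set it apart, at 3 h or beside the smaller shares at other times. The lowest F test p over times there was that of Ppm1a (limma adjusted p = 0.145), which was called higher at 3 h only with quantile normalisation (0.43, adjusted p = 0.0284), and of Ppp1cc (0.264).

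**Figure D4:**
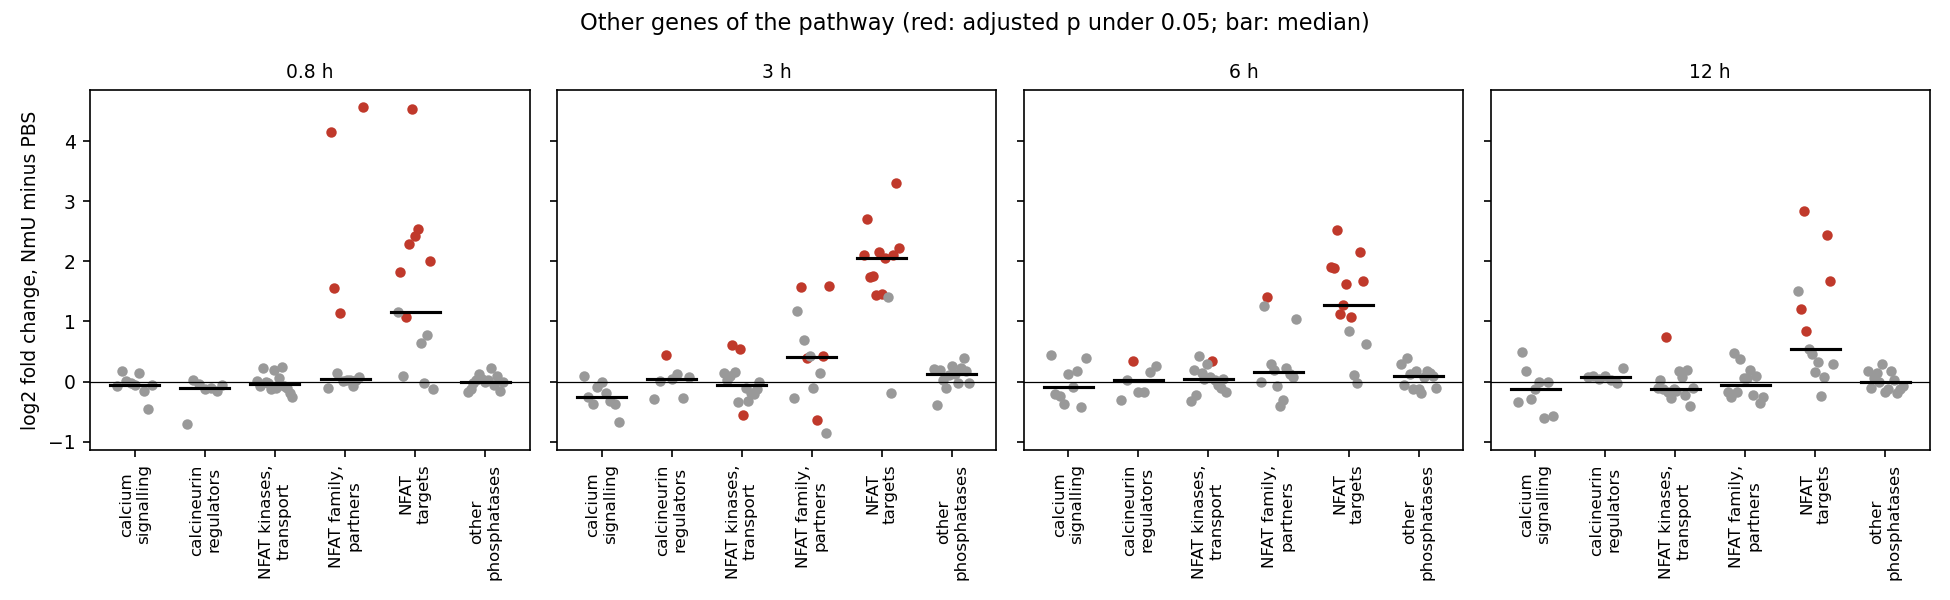
Log2 fold change, NmU over PBS, of every tested gene of the 6 pathway lists (points), a panel a time and a column a list, with called genes in red, others in grey and the median as a bar. At 3 h 11 of the 13 plotted NFAT targets are red, Ccl4 among them, and 0 of the genes in the upstream calcium and other phosphatase columns.

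Markers of other cells that could accompany the clone were set beside these results. Of the B cell markers and of the macrophage and dendritic cell markers 4 each were tested and 0 were called at 3 h. The B cell marker Cd79b passed the filter through NmU groups only. The summed signal of the macrophage markers was 198 to 251 with NmU and 190 to 250 with PBS at 3 h, and that of the B cell markers was 139 to 157 with NmU and 116 to 169 with PBS. At 6 h the macrophage sum was 256 to 309 with NmU and 217 to 242 with PBS, without overlap, and at 12 h it was 270 to 341 with NmU and 204 to 314 with PBS. The CD8 T or NK sum, nearly all Gzmb, was 2350 to 3420 with NmU and 2100 to 3600 with PBS at 3 h, and 2170 to 2460 with NmU and 1450 to 1850 with PBS at 12 h, where it did not overlap. Cd68 was called higher at 6 h (0.54 ± 0.15, limma adjusted p = 0.037), a call lost with arrays scaled to a common median (0.46, 0.108) and with quantile normalisation (0.47, 0.105), and at 12 h (0.61 ± 0.15, 0.0457). With no filter on dim signals, 0 of the 7 macrophage and dendritic cell markers on the array were called at 6 or 12 h. The part of these markers in any result was not tested.

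The genes whose log2 signal over the 31 arrays was most like that of Nfatc1 were Srxn1, the antioxidant enzyme sulfiredoxin (r = 0.826), B3gnt2 (0.817), Alcam, an adhesion molecule (0.812), Slfn2 (0.811), Mapk6, the atypical kinase ERK3 (0.807), F2r, the thrombin receptor (0.795), Ccl1, a Th2 chemokine (0.794), and Agfg1 (0.783). All of them had log2 fold changes at 3 h between 0.77 (F2r) and 3.72 (Ccl1). The lowest correlations belonged to Mbd4, a DNA glycosylase (-0.890), Cdkn2c, an inhibitor of cyclin-dependent kinases (-0.826), and Myb, a transcription factor of cycling blood cells (-0.814). These arrays share treatment and time. With group means taken off, r with Nfatc1 was between -0.118 (Ccl1) and 0.41 (B3gnt2) among the 8 and -0.628 for Mbd4.

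Ppp3ca gave another picture. The genes most like it were Bmp2k (r = 0.809), Uri1 (0.794) and Zfp51 (0.761), and within groups these correlations were 0.816, 0.74 and 0.711. Their likeness to Ppp3ca therefore lay between arrays of the same group, whereas that of Nfatc1 to its 8 genes lay mostly between groups. Among the 36 pairs of the 9 tested probe sets r ran up to 0.628, for Nfatc2 93075_r_at and Ppp3cb, with a median of -0.03. Within groups it ran from -0.559, for Nfatc1 and Ppp3cb, to 0.502.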

How the data were processed

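Total RNA of D10.G4.1 cells was hybridised to 1 array a sample, and the titles gave the groups and replicates. The deposited values were linear probe set intensities with none under 0; for the scanner, the summary of probes and the authors' scaling, nothing is stated (not given in the sources used here). Means after trimming 2% at each end lay between 150.09 and 150.11 on all arrays and median signals between 34.4 and 43.3, so the intensities were used as deposited. No 2 arrays held identical values. Of 12488 probe sets, 66 controls were left out; 10833 had 1 gene symbol, 396 several and 1193 none. Symbols of the 7 genes matched RefSeq (GRCm38.p6) by Entrez number.

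Signals under 5.8 (20th percentile) were raised to that floor, log2 was taken, and a probe set was kept if its group mean passed 20.2 (40th percentile) in at least 1 group, leaving 7930 for 5905 genes. One model of 8 group means over 31 arrays was fitted with limma 3.58.1 in R 4.3.3 (23 residual and 2.72 prior degrees of freedom), with two-sided tests, F tests over times, and Benjamini-Hochberg adjustment over 7930. The code was tested on simulated data. Named beside the members are list genes called at any time (otherwise the 2 with the lowest F test p), the 8 most and 3 least like Nfatc1 and the 3 most like Ppp3ca. Where a gene of a list had several probe sets, the brightest stood for it. The members and lists were chosen with earlier results of these data known. Other scalings, floors, filters, models, array weights and leaving out each array were tried, and leaving out 2 arrays together was added after seeing the data.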

Additional observations from a re-analysis of the deposited data

Results flagged for a closer look

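In 70 groups of 4 arrays over the 10 probe sets, 7 held 1 array far from the other 3, by a gap larger, relative to the group's range, than Dixon's critical value; chance alone marks about 1 group in 20. For Nfatc3 97975_at the gap was 0.855 of the range at PBS 3 h, where replicate 2 read 287.7 and the others 313.6 to 318, and 0.9 at PBS 0.8 h, where replicate 3 read 275.1 and the others 300.4 to 303.2. For Nfatc2 93073_at it was 0.865 both at PBS 3 h (replicate 3 at 104.3, the others 85 to 87.6) and at PBS 6 h (replicate 1 at 98.3, the others 107.3 to 108.7). For Ppp3ca it was 0.965 at NmU 12 h, where replicate 4 read 915.2 and the others 627 to 637, and 0.859 at PBS 12 h, where replicate 1 read 771.1 and the others 620.4 to 641.7. For the dim Nfatc3 102050_at it was 0.96 at PBS 6 h, where replicate 4 read 12.8 and the others 2.7 to 3.1. The effect of NmU on Ppp3cc differed between times (limma F test adjusted p = 0.0269), positive at 0.8 h and negative at 3, 6 and 12 h. That call was kept in 26 of the 31 fits that each left out 1 array. It was lost with a replicate block (limma F test adjusted p = 0.0945), though equal replicate numbers are not shown to pair samples.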

How the results depend on the processing

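Over 54 single results and 2200 alternatives, 0 turned direction among called values, 2182 kept their side of the threshold, 8 lost a call and 10 gained one. The rise of Nfatc1 at 3 h held under all 41, with log2 fold changes from 0.96 to 1.21 and limma adjusted p from 6.28e-05 to 0.0323. The count of members called at 3 h, 2, was 1 when only the 2 groups compared were fitted and ranged from 1 to 2 with each array left out in turn, the 1 being without NmU 3 h replicate 2. At 6 h the count of 0 became 1, Nfatc1, with array weights, with an intensity trend and robust prior (limma adjusted p = 0.0464), and without the 2 arrays that stand apart (0.03, an alternative chosen after seeing the data). With each array left out it ranged from 0 to 1; Nfatc1 was called in 7 of 31 such fits, without PBS 3 h replicate 2 (0.0434) or 4 (0.0466), PBS 6 h replicate 4 (0.0394), NmU 6 h replicate 4 (0.0357), PBS 12 h replicate 1 (0.0386) or 4 (0.0302), or NmU 12 h replicate 1 (0.0435). The count of members whose effect differed between times, 1, became 0 with a replicate block (Ppp3cc limma adjusted p = 0.0945) and ranged from 0 to 1 with each array left out. Equal replicate numbers are not shown to pair samples: deviations of same-numbered arrays correlated at -0.224 to 0.204 over 15 pairs, 5 of them over 0.1, and at -0.24 to 0.257 over 45 other pairs. Of 15 NmU arrays 7 had their best PBS match in their own number, and the block changed no other member count. The causes of these changes were not tested. Over all probe sets, fits of only the 2 groups called 110 higher and 61 lower at 3 h, against 352 and 454 with all arrays, and array weights called 361 and 316 at 6 h, against 226 and 161. Signals near the floor, as for Nfatc3 102050_at, understate any change.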
